A study of Mus musculus with 20 samples.

Results

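The transcripts described here are those encoded by mitochondrial DNA in mouse gastrocnemius, a calf muscle made up mostly of fast fibres. They are the 37 of 53311 entries of a gene count table whose symbol starts with "mt-", a rule on the name that uses no measured value. The 37 comprised 13 protein genes, 2 ribosomal RNA (rRNA) genes and 22 transfer RNA (tRNA) genes. All 37 were accounted for, and 22 of them had enough counts to be tested, namely 12 protein genes, both rRNA genes and 8 tRNA genes.

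The study asked how loss of BMAL1 in skeletal muscle, with or without a bout of acute exercise, affects the muscle. BMAL1 is a core activator of the circadian clock, and its gene is Arntl. All 20 samples carried the genotype Cre+:iMSBmal1 fl/fl, so the controls also had Cre and floxed Bmal1 alleles. The 4 groups of 5 samples were Vehicle with No Exercise at zeitgeber time 13 (vehicle at rest), Vehicle with Exercise (vehicle after exercise), iMSBmal1KO with No Exercise at zeitgeber time 13 (knockout-labelled at rest) and iMSBmal1KO with Exercise (knockout-labelled after exercise). Exercised muscles were taken at the label ZT13-1 Hour Post, that is 1 h after a treadmill run of 30 min. One label of the exercised iMSBmal1KO samples speaks of training, while their titles and treatment labels speak of acute exercise, and they were analysed as acute exercise. The p-values set each difference against the spread between these samples. The labels do not say whether replicates were separate animals, so whether the p-values extend to animals is not known. The labels also do not give the age of the mice or the promoter that drives Cre.

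Total counts ranged from 8045154 to 11269812 per sample, with a median of 9024900. Levels are counts scaled to a total of 1000000 per sample (CPM), and at these depths 3 counts, the most that a count of 0 allows, correspond to between 0.266 and 0.373 CPM. The targeted gene did not separate the groups. Arntl was at 12.3 ± 1.94 CPM (SD, n = 5) in vehicle and 14.6 ± 1.93 in knockout-labelled samples at rest, and at 13.9 ± 5.18 and 16.4 ± 3.85 after exercise. By edgeR's quasi-likelihood test with Benjamini-Hochberg adjustment, its log2 difference was 0.24 at rest (adjusted p = 0.725) and 0.20 after exercise (adjusted p = 0.689). A count over the whole gene does not single out the deleted part, so it does not check the labels, and the samples are called knockout-labelled throughout. Slow-fibre genes varied widely between samples of a group, and their values are given beside the results they move with.

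Mitochondrial DNA is a small circle present in many copies per cell. Both strands are transcribed by the RNA polymerase POLRMT with the factors TFAM and TFB2M into long precursors, and most mRNAs and rRNAs are released from these by cutting out the tRNAs that lie between them. The encoded proteins are core subunits of respiratory chain complexes I, III and IV and of ATP synthase (complex V), and the rRNAs build the mitochondrial ribosome that translates them. Muscle is rich in these transcripts, and slow oxidative fibres hold more mitochondria than most fast fibres do.

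Copies of mitochondrial DNA inserted into the nuclear genome bear on what a count of such a gene means, and stretches of 4 genes are therefore shown with their best nuclear match. Sequences are from the GRCm38 assembly with the GENCODE M21 annotation, written 5′ to 3′ on the gene's strand, with positions counted from 1 at the gene's 5′ end. Capitals mark bases that differ between the gene and its copy. The first 80 bases of mt-Co3, which encodes a subunit of cytochrome c oxidase, were identical in the pseudogene Gm28437.
mt-Co3: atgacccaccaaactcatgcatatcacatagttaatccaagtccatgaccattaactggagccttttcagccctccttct
Gm28437: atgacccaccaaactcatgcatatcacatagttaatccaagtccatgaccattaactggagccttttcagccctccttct
The first 80 bases of mt-Nd3, a complex I subunit gene, carried 1 difference from Gm28438, T3C (the gene's base first).
mt-Nd3: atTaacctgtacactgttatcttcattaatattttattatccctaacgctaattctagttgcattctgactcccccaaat
Gm28438: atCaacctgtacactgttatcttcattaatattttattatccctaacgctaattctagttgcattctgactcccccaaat
Bases 1063 to 1142 of mt-Co1, the largest subunit gene of cytochrome c oxidase, carried 1 difference from Gm29216, A1066T.
mt-Co1: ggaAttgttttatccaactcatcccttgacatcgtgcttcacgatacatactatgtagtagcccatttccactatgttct
Gm29216: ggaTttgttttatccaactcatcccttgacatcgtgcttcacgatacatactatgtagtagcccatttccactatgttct
Bases 518 to 597 of mt-Nd1, a complex I subunit gene, carried 15 differences from Gm11834.
mt-Nd1: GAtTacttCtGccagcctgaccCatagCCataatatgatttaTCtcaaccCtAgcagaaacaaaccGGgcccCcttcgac
Gm11834: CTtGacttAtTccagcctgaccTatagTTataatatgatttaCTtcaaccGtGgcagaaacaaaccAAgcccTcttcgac
A read from the stretch shown of mt-Co3 cannot be assigned to the mitochondrion or to the nuclear genome by its letters, whereas one from that of mt-Nd1 can.

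Over whole genes, mt-Co2, mt-Atp6, mt-Co3, mt-Nd4l and mt-Nd3 matched pseudogenes on chromosome 1 over at least 99% of their length. The first 4 of these matched at 100% identity, to Gm28661, Gm10925, Gm28437 and Gm10222, and mt-Nd3 matched Gm28438 at 99.7%. Part of mt-Nd4 (bases 1 to 876 of 1378, Gm28439) and part of mt-Co1 (bases 1063 to 1545, Gm29216) matched at 100% and 99.8%. Of mt-Atp8, bases 162 to 204 matched Gm10925 at 100%. The search covered annotated transcripts only, so copies in other nuclear sequence would be missed. In mitochondrial order, mt-Atp8 and the serine tRNA gene mt-Ts1 lie between genes with such matches. Whether a nuclear copy spans these 2 genes was not tested. The best matches of mt-Nd1, mt-Nd2, mt-Nd5, mt-Nd6 and mt-Cytb ran from 77.2% to 96.7% identity, on chromosomes 2 and 4. How the deposited counts treated reads that match more than 1 place is not given in the sources used here.

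Mitochondrial transcripts made up a large share of all counts, and 1 gene, mt-Co1, held 33.4% of them. The summed share was 11.4% ± 3.06 (SD, n = 5) in vehicle at rest, 11.7% ± 1.72 in vehicle after exercise, 10.8% ± 2.47 in knockout-labelled samples at rest and 10.6% ± 1.46 after exercise. Within groups the summed share differed by up to the range of 7.55% to 14.96% seen in vehicle at rest. Protein genes took most of the mitochondrial counts in every group, with mean shares from 94.9% to 97.3%. The rRNA genes took mean shares from 2.39% to 4.51%, and the tRNA genes from 0.315% to 0.571%.

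Among protein genes, the 7 complex I genes together took 47.4% ± 1.62 (SD, n = 20) of the mitochondrial counts, the 3 complex IV genes 33.5% ± 1.71 and mt-Cytb, the only complex III gene encoded there, 15.6% ± 0.927. Both ATP synthase genes together took 0.0285% ± 0.0213. Per kilobase of gene, the highest mean level was that of mt-Co1, at 23969 CPM per kb, followed by mt-Nd1 at 15381 and mt-Cytb at 15217. The complex I genes mt-Nd2, mt-Nd6, mt-Nd5 and mt-Nd4 stood at 10308, 9089, 7150 and 6948 CPM per kb. Of these, mt-Nd6 is the only protein gene on the opposite strand from the others.

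The genes with a full-length nuclear copy had far lower counts per length than the other protein genes except mt-Atp8. Among the 5 of them, mt-Co2 had the highest level, 113 CPM per kb, followed by mt-Co3 at 69.2, mt-Atp6 at 46.8, mt-Nd3 at 12.9 and mt-Nd4l at 5.47. The lowest of the 5 genes without a copy at this identity, mt-Nd5, was 63.2-fold above mt-Co2 per kilobase, and mt-Nd4, with a part-length copy, was 61.5-fold above it. These 5 genes together held 0.151% of the mitochondrial counts. Levels of mt-Co2, mt-Co3 and mt-Atp6, which encode catalytic or core subunits of complexes IV and V, are therefore levels of reads assigned to these genes, and the part that read assignment had in them was not tested. The nuclear copies carried counts of the same order, with a mean of 30.0 CPM for Gm28661, 52.4 for Gm10925 and 31.0 for Gm28437, beside 77.3 CPM for mt-Co2, 31.9 for mt-Atp6 and 54.3 for mt-Co3. The remaining protein gene, mt-Atp8, encodes a small ATP synthase subunit and had 8 counts in all, with 0 counts in 16 libraries.

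**Figure D1:**
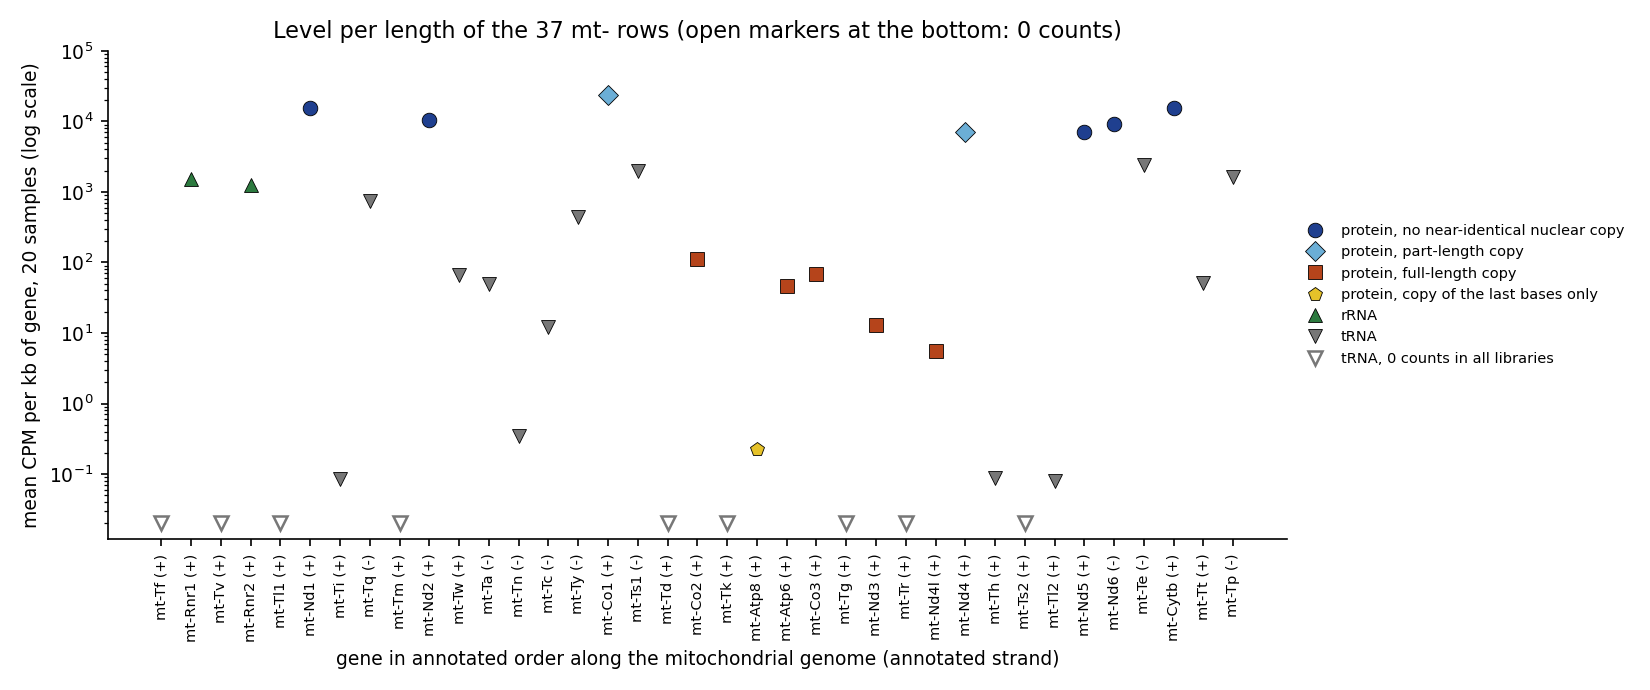
Mean level per kilobase (CPM per kb, log axis, mean of 20 samples) of each of the 37 genes in their annotated order along the mitochondrial genome, with colours for rRNA, tRNA and the kinds of nuclear copy of protein genes and open markers for genes with 0 counts in all libraries. The 5 protein genes with a full-length nuclear copy lie between 5.47 and 113 CPM per kb, those with a part-length copy (mt-Nd4 and mt-Co1) at 6948 and 23969, and the 5 without a copy at this identity between 7150 and 15381, while mt-Atp8 is at 0.225.

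The rRNA genes, mt-Rnr1 (the small-subunit rRNA) and mt-Rnr2 (the large-subunit rRNA), stood at 1506 and 1232 CPM per kb, below each of the 7 abundant mRNAs. The count ratio of mt-Rnr2 to mt-Rnr1 was 1.35 ± 0.113 (SD, n = 20), with a range of 1.07 to 1.52, so both rRNAs moved broadly together between samples. At rest the ratio ran from 1.39 to 1.52 in vehicle and from 1.28 to 1.37 in knockout-labelled samples. After exercise it ran from 1.14 to 1.42 in vehicle and from 1.07 to 1.48 in knockout-labelled samples. The labels do not say whether the kit removed rRNA or selected polyadenylated RNA.

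The tRNA genes differed by strand. The 14 tRNA genes annotated on the strand shared with most protein genes held 1.59% of all tRNA counts, and 9 of them had 0 counts in all 20 libraries. The 8 on the opposite strand held 98.4%, and 6 of these were tested. Whether counting used strand is not given in the sources used here, so reads of a tRNA and of a transcript running antisense to it cannot be told apart. The 3 with the highest mean level were mt-Te (tRNA for glutamate) at 164 CPM, mt-Ts1 (a serine tRNA) at 136 CPM and mt-Tp (proline) at 109.6 CPM, all on the opposite strand. They are shown with mt-Tm (methionine), which lies on the other strand between protein genes and had no counts. The capitals in mt-Ts1 mark bases that overlap mt-Co1.
mt-Te: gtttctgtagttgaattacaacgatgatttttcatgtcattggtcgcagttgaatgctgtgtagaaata
mt-Tp: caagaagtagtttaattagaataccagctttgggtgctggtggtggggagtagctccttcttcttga
mt-Ts1: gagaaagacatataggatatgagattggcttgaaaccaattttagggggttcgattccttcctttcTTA
mt-Tm: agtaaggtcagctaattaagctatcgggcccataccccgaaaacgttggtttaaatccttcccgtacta
All 4 genes are 67 to 69 bases long, so their levels can be compared without a correction for length. The fourth most abundant tRNA was mt-Tq (glutamine), at 52.2 CPM over all samples. Group means ± SD (n = 5) of mt-Te were 222 ± 115 CPM in vehicle at rest, 144 ± 19.7 after exercise, 157 ± 53.9 in knockout-labelled samples at rest and 132 ± 39.2 after exercise. Those of mt-Tp were 115 ± 26.8, 125 ± 37.5, 99.9 ± 23.0 and 98.6 ± 14.4 CPM in the same order, and those of mt-Tq were 59.2 ± 35.8, 69.8 ± 38.7, 44.3 ± 20.4 and 35.5 ± 23.3 CPM. The 14 tRNA genes without a test had few or no counts in nearly all libraries. The exception was mt-Tc (cysteine), with 135 counts in all, of which 131 came from replicate 2 of the knockout-labelled group at rest.

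None of the 7 abundant mRNAs was called in any of the 5 comparisons between groups. In the order vehicle at rest, vehicle after exercise, knockout-labelled at rest and knockout-labelled after exercise, mt-Co1 averaged 37983 ± 10108, 37110 ± 6034, 35820.0 ± 6870.0 and 37212 ± 5604 CPM (SD, n = 5 each, as for the means that follow). The cytochrome b gene mt-Cytb averaged 17623 ± 5429.8, 17953 ± 2818, 17813 ± 4467 and 16243 ± 2551 CPM. Among complex I genes, mt-Nd1 averaged 15495 ± 3261, 16095 ± 1402, 13960.5 ± 2819 and 13329 ± 1028 CPM. The remaining abundant mRNAs encode further subunits of complex I. For mt-Nd5 the means were 13090.2 ± 3319.6, 12561 ± 1908, 13302 ± 3588 and 13217 ± 2119 CPM, and for mt-Nd2 they were 11253 ± 3650.0, 11685 ± 1547, 10156 ± 2612 and 9707 ± 1227 CPM. For mt-Nd4 they were 10043 ± 3297, 10419 ± 1547, 9234 ± 2477 and 8603 ± 1288 CPM, and for mt-Nd6 they were 4821 ± 1182, 4620 ± 618, 4682 ± 1439 and 4746 ± 1162 CPM. The sparse mRNAs had wider spreads relative to their means. These were 28.5 ± 14.3, 48.2 ± 41.3, 28.96 ± 15.4 and 21.8 ± 5.68 CPM for mt-Atp6, and 3.50 ± 1.93, 5.14 ± 1.13, 6.46 ± 7.69 and 2.88 ± 1.58 CPM for mt-Nd3. For mt-Nd4l they were 1.79 ± 0.632, 1.63 ± 0.889, 1.65 ± 0.828 and 1.42 ± 0.880 CPM.

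The composition of the abundant mRNAs was steady across all 20 samples. The highest share of mt-Co1 was 1.21 times its lowest, and the corresponding ratios were 1.25 for mt-Nd4, 1.30 for mt-Nd1, 1.31 for mt-Cytb, 1.33 for mt-Nd5, 1.34 for mt-Nd2 and 1.55 for mt-Nd6. Ratios were larger for the rRNAs, at 3.76 for mt-Rnr1 and 3.53 for mt-Rnr2. They were larger again for mt-Co3 at 5.51, mt-Atp6 at 7.45, mt-Nd3 at 11.27 and mt-Ts1 at 21.5, while mt-Co2 had 2.08. Of these, mt-Nd3 averaged 4.49 CPM, so counting error is part of its spread.

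After exercise, mitochondrial rRNA in knockout-labelled muscle was 0.508 times that in vehicle muscle and tRNA 0.534 times, as ratios of geometric means, while summed mRNA differed little. Much of the difference in mean summed tRNA lay in a single gene, mt-Ts1. The spread between samples was wide, and no class difference passed adjustment over all class comparisons. In vehicle samples after exercise, summed rRNA was 7561, 3427, 7375, 5471 and 3036 CPM in replicates 1 to 5. In knockout-labelled samples after exercise it was 3024, 1785, 3586, 1655 and 3339.5 CPM. Replicates 1, 3 and 4 of vehicle lay above every knockout-labelled sample, and replicates 2 and 5 lay within their range. The mean log2 difference was -0.98 (knockout-labelled minus vehicle, SE 0.361, exact two-sided permutation p = 0.0476). This did not hold after adjustment over the 28 class comparisons (Benjamini-Hochberg adjusted p = 0.222), and none of the 28 passed that adjustment. For 5 against 5 samples the smallest p that this test can give is 0.00794. Over 28 comparisons, a single class difference at that p could not pass the adjustment, however clear it was. The lack of a passing class therefore does not show that no class differed.

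As a share of mitochondrial counts, rRNA took 5.76%, 3.22%, 5.30%, 5.41% and 2.88% in vehicle replicates 1 to 5 after exercise. The knockout-labelled shares were 2.84%, 2.13%, 3.17%, 1.59% and 2.703%. Of the vehicle samples only replicate 5 lay within the knockout-labelled range. The difference in mean share was -2.02 percentage points (SE 0.668, exact permutation p = 0.0159, adjusted p = 0.222). Protein genes took 2.28 points more in knockout-labelled samples (exact permutation p = 0.0159, adjusted p = 0.222), which is the counterpart of the rRNA share, since the shares sum to the whole.

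Summed tRNA was 645, 816, 1229.7, 356 and 380.4 CPM in vehicle replicates after exercise. It was 364, 208, 423, 277 and 429 CPM in the knockout-labelled ones. Vehicle replicates 1, 2 and 3 were above all knockout-labelled samples, and replicates 4 and 5 were within their range. The mean log2 difference was -0.91 ( SE 0.392, exact permutation p = 0.0714, adjusted p = 0.247). The difference in tRNA share was -0.255 points (exact permutation p = 0.0397, adjusted p = 0.222). A single gene, mt-Ts1, averaged 295 of the mean 685 CPM of summed tRNA in vehicle and 37.3 of 340 in knockout-labelled samples. The fitted differences of all 8 tested tRNA genes were negative, and the tRNA sum without mt-Ts1 was not tested. Summed protein mRNA differed by -0.10 on the log2 scale (exact permutation p = 0.468, adjusted p = 0.863), and all mitochondrial counts by -0.14 (exact permutation p = 0.317, adjusted p = 0.684).

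In vehicle muscle, exercised samples had 1.77 times the rRNA level of resting samples, as a ratio of geometric means. At rest, vehicle replicates 1 to 5 had 3205, 2953, 3716, 2953 and 1748 CPM of rRNA, so that exercised replicates 1, 3 and 4 exceeded all resting samples. The log2 difference was 0.83 (SE 0.330, exact permutation p = 0.0556, adjusted p = 0.222), and the share of rRNA was 1.91 points higher (SE 0.652, exact permutation p = 0.0397, adjusted p = 0.222). The share of protein genes differed by -1.96 points (exact permutation p = 0.0238, adjusted p = 0.222). Summed tRNA differed by 0.15 on the log2 scale (exact permutation p = 0.738), and all mitochondrial counts by 0.07 (p = 0.754 by the same exact test).

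In knockout-labelled muscle, mean class levels after exercise were close to those at rest, and whether this differs from vehicle muscle was tested gene by gene alone. Resting knockout-labelled samples had 2204, 4074, 2151, 2112 and 2373 CPM of rRNA, and replicate 2 stood apart from the other 4. The log2 difference of exercise against rest was 0.03 for rRNA (exact permutation p = 0.921), -0.21 for tRNA (p = 0.524 by the same exact test) and -0.01 for all mitochondrial counts (exact permutation p = 0.976). Between knockout-labelled and vehicle muscle at rest, the differences were -0.18 for rRNA (exact permutation p = 0.476), -0.54 for tRNA (exact permutation p = 0.135) and -0.06 for all mitochondrial counts (exact permutation p = 0.8095). The small differences with large p-values do not show that the groups were alike.

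**Figure D2:**
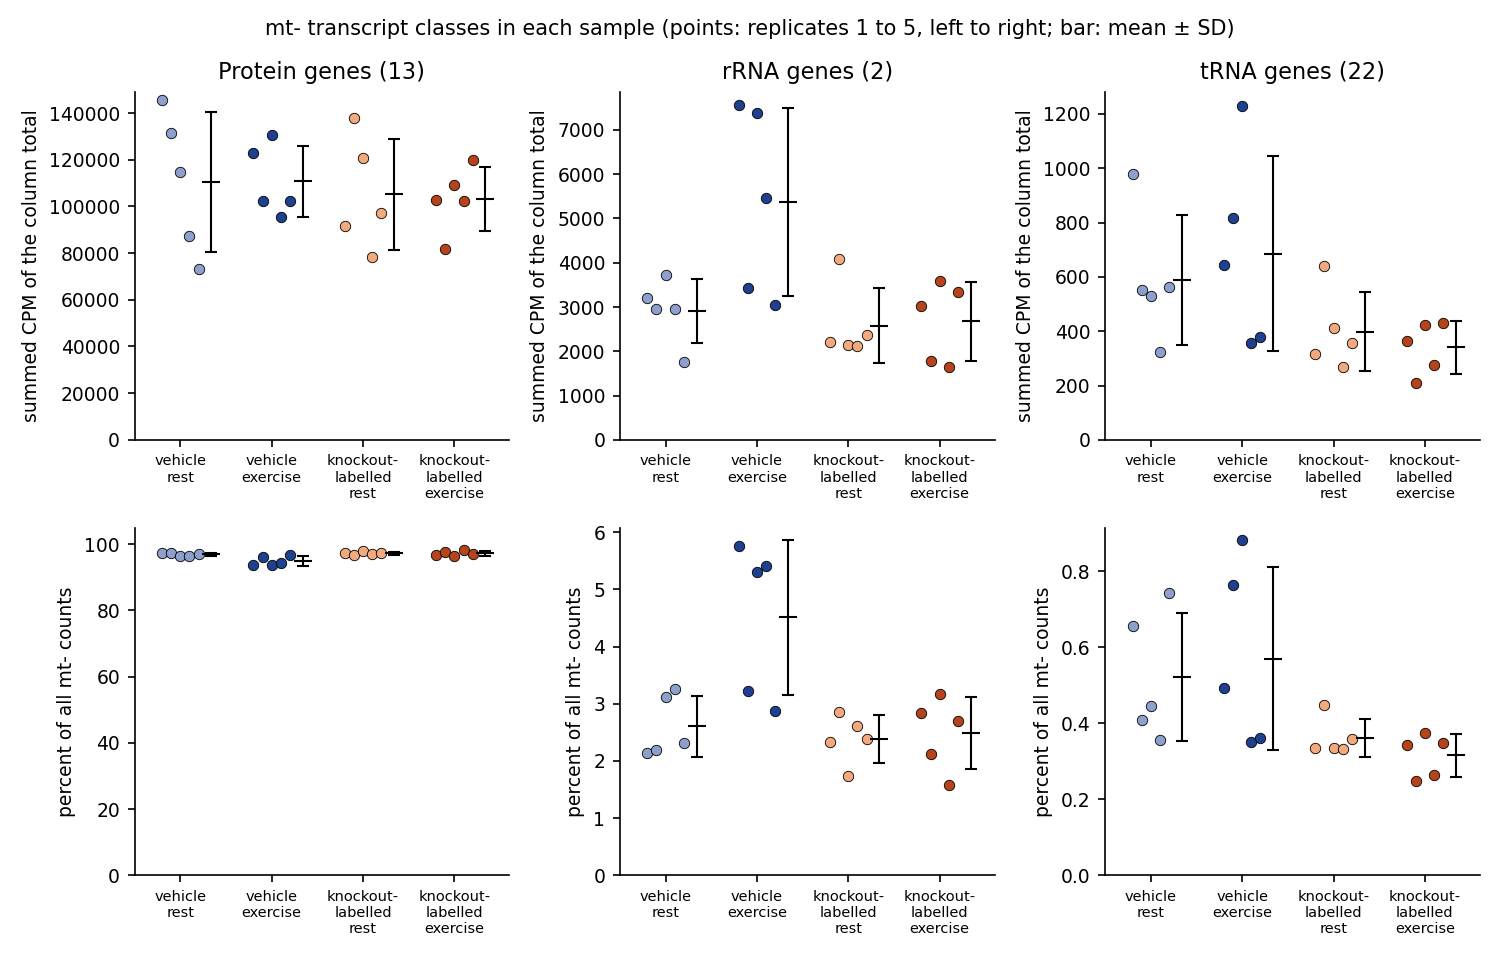
Summed CPM (upper plots) and percent of all mt- counts (lower plots) of protein, rRNA and tRNA genes in each sample of the 4 groups, with points for replicates 1 to 5 and bars for mean ± SD. The 3 highest of the exercised vehicle samples, at 5471 to 7561 CPM of rRNA, lie above all other 17 samples, whose highest value is 4074.

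Gene by gene, 5 of the 22 tested mitochondrial genes differed between treatments after exercise, all lower in knockout-labelled muscle. They were both rRNAs, the cytochrome c oxidase genes mt-Co2 and mt-Co3 and the serine tRNA mt-Ts1. Of all 13560 genes tested, 6.42% passed in that comparison in either direction and 3.75% were lower, by edgeR's quasi-likelihood test with Benjamini-Hochberg adjustment over all genes. Differences of 20 of the 22 genes were negative, with a median log2 difference of -0.50 beside 0.01 over all genes tested. By class, 2 of 12 protein genes, 2 of 2 rRNA genes and 1 of 8 tRNA genes passed. In bulk tissue, fewer cells of a type and less RNA per cell cannot be told apart.

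The small-subunit rRNA mt-Rnr1 was at 3329, 1604, 3044, 2272 and 1261 CPM in vehicle replicates 1 to 5 after exercise. Knockout-labelled replicates had 1220.4, 861, 1535, 703 and 1412 CPM. Only vehicle replicate 5 fell within the knockout-labelled range. The fitted log2 difference was -1.04 (SE 0.264, adjusted p = 0.0218 by edgeR's quasi-likelihood test). The call was lost without vehicle replicate 1 or 3 or knockout-labelled replicate 2 or 4, with adjusted p-values of 0.0521 to 0.0644. At rest, mt-Rnr1 averaged 1183 ± 290.5 CPM (SD, n = 5) in vehicle and 1123 ± 375 in knockout-labelled muscle.

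The large-subunit rRNA mt-Rnr2 was at 4232, 1823, 4332, 3199 and 1776 CPM in vehicle replicates after exercise. It was at 1804, 924, 2051, 952 and 1928 CPM in knockout-labelled replicates. Vehicle replicates 2 and 5 fell within the knockout-labelled range and the other 3 lay above it. The log2 difference of -1.04 (SE 0.283, edgeR adjusted p = 0.0336) lost its call without vehicle replicate 1, 3 or 4 or knockout-labelled replicate 1, 2 or 4, with adjusted p-values of 0.0507 to 0.0912. Resting levels were 1732 ± 434 CPM in vehicle and 1460 ± 465 in knockout-labelled muscle.

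For mt-Co3, levels after exercise were 59.2, 131, 107, 65.0 and 52.4 CPM in vehicle replicates and 33.3, 18.8, 35.5, 30.8 and 41.0 CPM in knockout-labelled replicates. The groups did not overlap. The log2 difference was -1.42 (SE 0.295, edgeR adjusted p = 0.0062), and the call remained in all 10 fits that left out 1 sample of these groups (adjusted p = 0.00379 to 0.0179). With the counts of its identical nuclear copy Gm28437 added, the difference was -1.05 (edgeR adjusted p = 0.0311). Resting levels were 56.9 ± 12.95 CPM in vehicle and 45.2 ± 18.4 in knockout-labelled muscle.

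For mt-Co2, levels after exercise were 97.9, 98.5, 122, 77.1 and 90.3 CPM in vehicle replicates and 68.2, 38.1, 52.7, 65.5 and 66.4 CPM in knockout-labelled replicates, again without overlap. The log2 difference was -0.76 (SE 0.220, edgeR adjusted p = 0.0434). It kept its call only without vehicle replicate 4 or knockout-labelled replicate 4. Each of the other 8 left-out samples, vehicle replicates 1, 2, 3 and 5 and knockout-labelled replicates 1, 2, 3 and 5, ended it (adjusted p = 0.0582 to 0.0961). With the counts of Gm28661 added, the difference was -0.62 and did not pass (edgeR adjusted p = 0.117). Resting levels were 88.3 ± 22.02 and 65.7 ± 23.6 CPM.

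The serine tRNA mt-Ts1 was at 132, 507, 719, 51.6 and 67.7 CPM in vehicle replicates after exercise and at 32.9, 24.4, 69.0, 30.5 and 29.6 CPM in knockout-labelled replicates. Vehicle replicates 2 and 3 were far above all others, and replicates 4 and 5 fell within the knockout-labelled range. The fitted log2 difference was -3.01 (SE 0.841, edgeR adjusted p = 0.0425). It lost its call without vehicle replicate 2 or 3, which gave -2.66 and -2.46, or without knockout-labelled replicate 1, 2, 4 or 5 (adjusted p over all 6 = 0.0831 to 0.0975). Its group means were 154 ± 180 CPM (SD, n = 5) in vehicle at rest, 295 ± 301 after exercise, 57.2 ± 39.7 in knockout-labelled muscle at rest and 37.3 ± 18.0 after exercise. At rest, replicate 1 of vehicle had 467 CPM and the other 4 had 30.6 to 139.6 CPM.

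**Figure D3:**
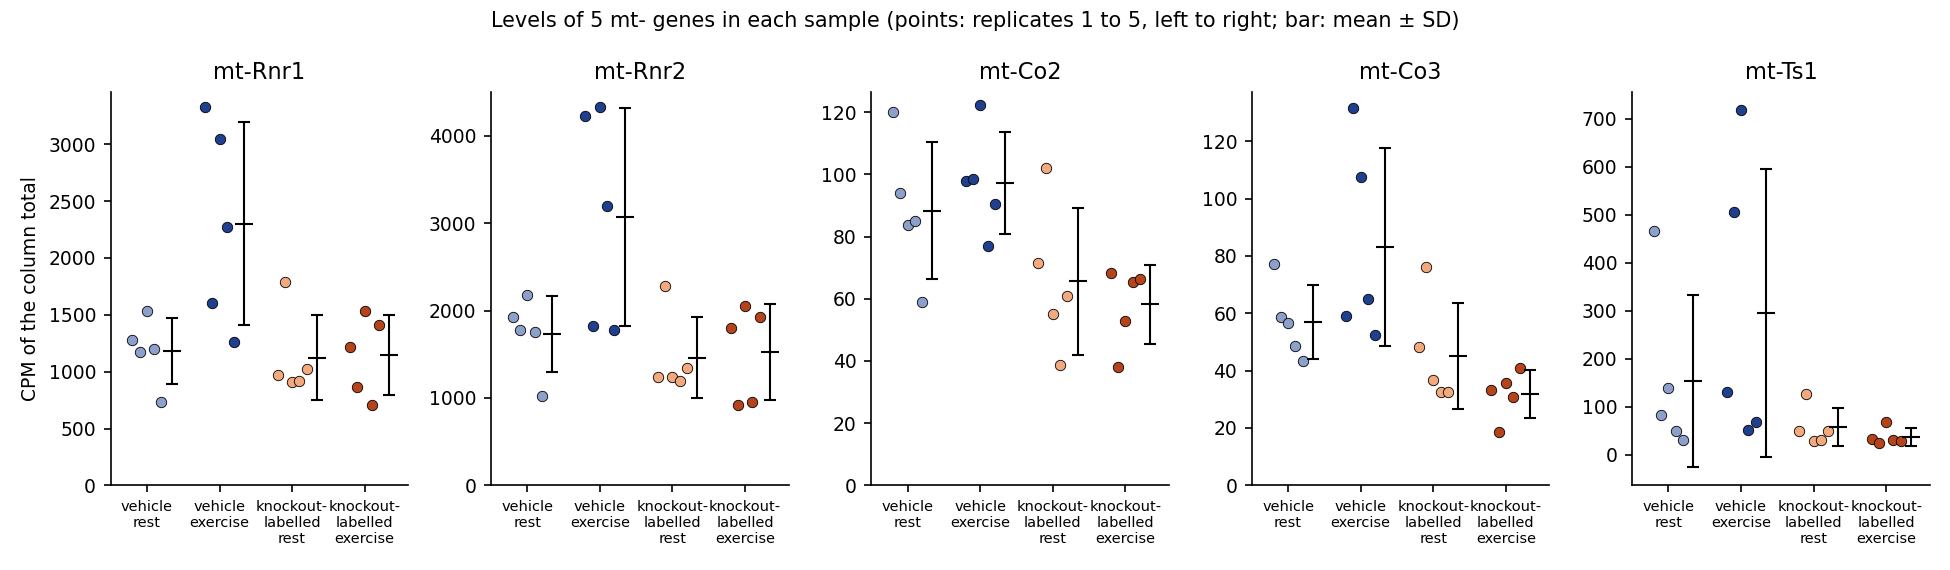
CPM of the 5 mitochondrial genes called after exercise in each sample of the 4 groups, with points for replicates 1 to 5 and bars for mean ± SD. The exercised groups do not overlap for mt-Co2 and mt-Co3 and overlap for mt-Rnr1, mt-Rnr2 and mt-Ts1.

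All 5 log2 differences were negative in every fit with 1 sample left out and in each of 10 other alternative fits. These fits reuse the samples in which the 5 genes were called, so the shared sign is not independent support. Of the 10 other fits, 9 called mt-Co3, 7 called mt-Rnr1, 6 called mt-Ts1, and 5 each called mt-Rnr2 and mt-Co2.

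The abundant mRNAs did not pass the test after exercise. The largest, mt-Co1, had a fitted log2 difference of -0.02 (edgeR adjusted p = 0.964). The exercised groups did not overlap for mt-Nd1, which had 17020.4, 14948, 18098, 14994 and 15415 CPM in vehicle and 13004, 11811, 13608, 13604 and 14620.2 CPM in knockout-labelled replicates. Its log2 difference of -0.30 did not pass (edgeR adjusted p = 0.244). Lower ranges without overlap were found in 3 of the 22 genes (mt-Nd1, mt-Co2 and mt-Co3), beside 2.9% of all genes tested. The ATP synthase gene mt-Atp6 had a log2 difference of -1.17 (edgeR adjusted p = 0.171).

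Each gene was also compared with the sum of mitochondrial counts in place of the library. In that fit, 2 of the 22 tested mitochondrial genes were called lower in knockout-labelled muscle after exercise, beside 0.634% of all genes. With the library as denominator, 3.75% of all genes were called lower. Nuclear genes in this fit also carry the spread of the mitochondrial share between samples. The 0.634% is therefore not a like background for the 2 of 22. The 2 genes were mt-Co3, with a log2 difference of -1.28 (edgeR adjusted p = 0.00046), and mt-Rnr1, with -0.85 (edgeR adjusted p = 0.0486). The values of mt-Rnr2 (-0.86, adjusted p = 0.0542), mt-Ts1 (-2.79, adjusted p = 0.0714) and mt-Co2 (-0.61, adjusted p = 0.0992) did not pass the same edgeR test.

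No mitochondrial gene was called at rest, where 3.86% of all genes were. The differences of the same 5 genes between knockout-labelled and vehicle muscle at rest were -0.09 for mt-Rnr1, -0.26 for mt-Rnr2, -0.34 for mt-Co3, -0.44 for mt-Co2 and -1.42 for mt-Ts1. The smallest edgeR adjusted p among the 22 was 0.373, none had an unadjusted p under 0.05, and DESeq2 called none. The comparison of exercise with rest called none of the 22 in vehicle muscle, where 0.804% of all genes were called, and 2, the rRNAs, had an unadjusted p under 0.05. Their log2 differences there were 0.98 for mt-Rnr1 (edgeR adjusted p = 0.113) and 0.84 for mt-Rnr2 (edgeR adjusted p = 0.275). DESeq2 called 1.44% of all genes in that comparison and 1 mitochondrial gene, mt-Rnr1 (adjusted p = 0.0097), and edgeR also called it without vehicle replicate 5 after exercise (log2 difference 1.13, adjusted p = 0.0285).

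In knockout-labelled muscle, exercise against rest called 0 of the 22 genes and 0 of all genes (0%) with edgeR, and none of the 22 had an unadjusted p under 0.05. Over all genes, 639 had an unadjusted p under 0.05, and DESeq2 called 0 genes there. The differences were 0.03 for mt-Rnr1 and 0.06 for mt-Rnr2. The difference between both exercise responses, tested as an interaction, called 0 of the 22 and 0 of all genes (0%) with edgeR, and 0 of the 22 and 3 of all genes with DESeq2. Of the 22, 3 had an unadjusted p under 0.05, and over all genes 791 had. These 3 were mt-Nd3 (-1.72, edgeR adjusted p = 0.849), mt-Co3 (-1.08) and mt-Rnr1 (-0.95, edgeR adjusted p = 0.792 for both). For mt-Rnr2 the interaction was -0.78 (edgeR adjusted p = 0.871). The treatment difference after exercise was thus not shown to differ from that at rest. The comparisons share samples, and their values are not independent of each other.

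**Figure D4:**
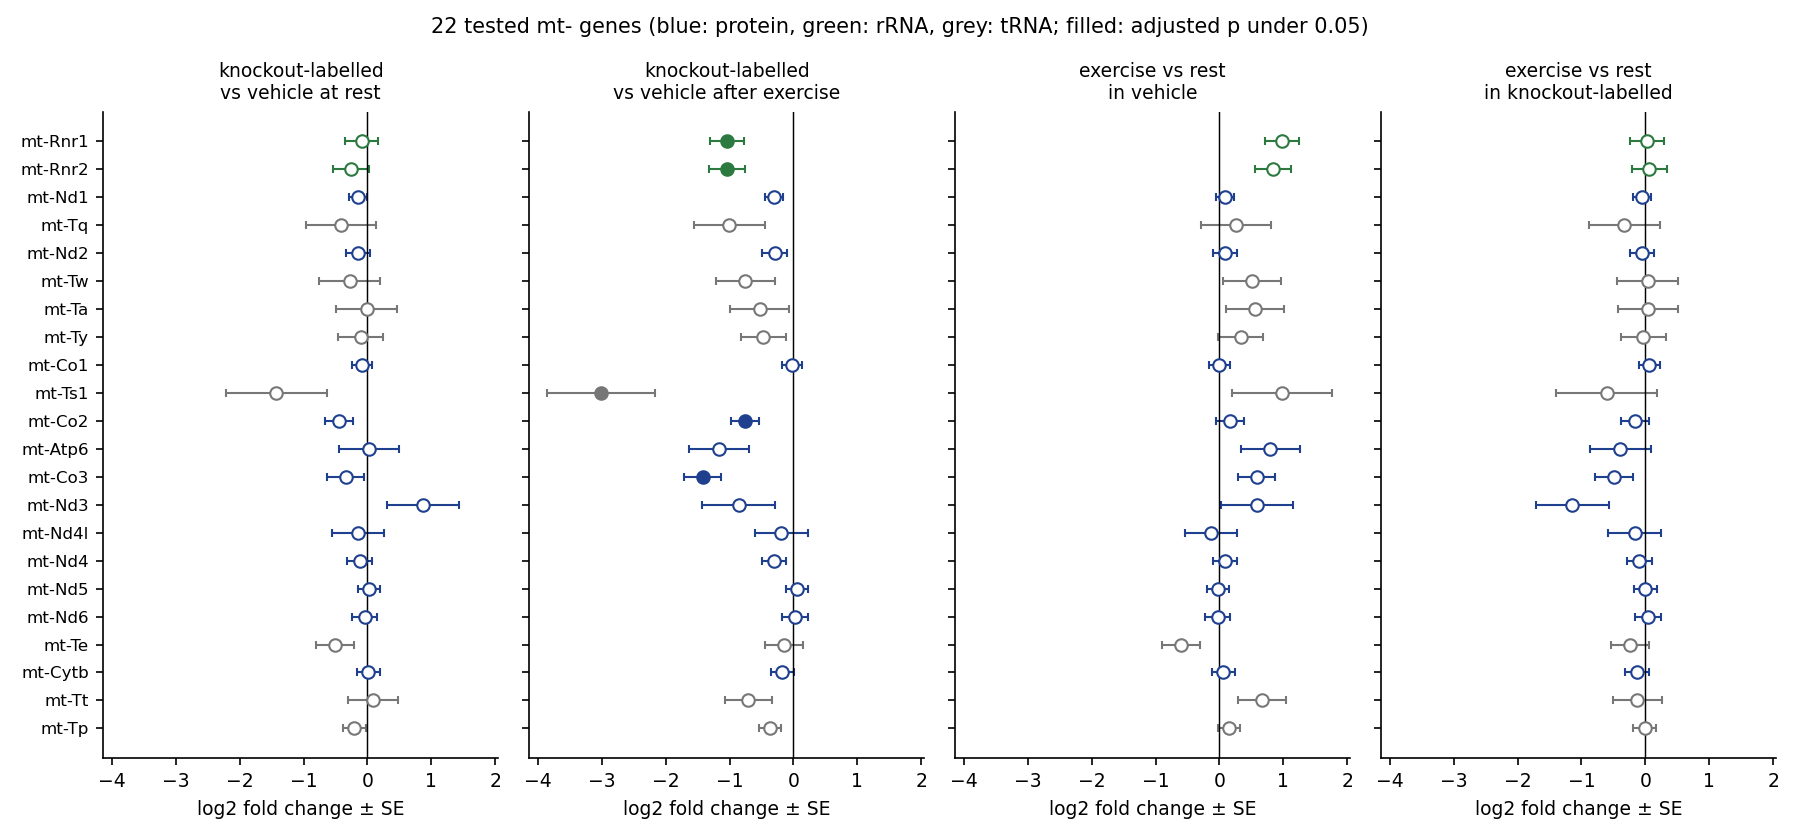
Log2 fold change ± SE of the 22 tested mitochondrial genes in 4 comparisons (blue for protein, green for rRNA, grey for tRNA, filled points for an adjusted p under 0.05). Filled points appear in the comparison after exercise alone, for mt-Rnr1, mt-Rnr2, mt-Co2, mt-Co3 and mt-Ts1.

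Slow-fibre genes moved with the mitochondrial counts. A score over 8 slow-fibre genes (mean log2 CPM of Myh7, Myl2, Myl3, Tnnt1, Tnni1, Tnnc1, Atp2a2 and Myoz2) left its widest gap between 2.77 and 4.54, with 5 samples below it. These were replicate 5 of vehicle at rest and replicates 2 and 4 of both exercised groups. No knockout-labelled sample at rest was below it. The defining slow myosin Myh7 ranged from 0 to 1266 CPM over all samples. The summed level of the 8 genes ranged from 81.5 to 2596 CPM in vehicle at rest, 34.6 to 2622 in vehicle after exercise, 241 to 3827 in knockout-labelled muscle at rest and 51.9 to 2638 after exercise.

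Mitochondrial transcripts took 7.55% to 10.7% of the counts in the 5 samples below the gap and 8.06% to 14.96% in the 15 above it. Across those 15, summed mitochondrial CPM rose with the score, with Pearson's r = 0.682 (permutation p = 0.00482, adjusted over 6 relations 0.00619) and Spearman's rho = 0.664 (permutation p = 0.0079, adjusted 0.00948). Without the 2 samples farthest from the median score, r was 0.540 (permutation p = 0.0564) and rho 0.599 (permutation p = 0.033) over 13 samples. The r over the 15 samples therefore rests in part on those 2 samples. Over all 20 samples r was 0.603 (permutation p = 0.00516), and 0.725 (permutation p = 0.00045) without the 2 farthest. As deviations from group means, r was 0.683 (permutation p = 0.00106), and 0.652 (permutation p = 0.00345) without the 2 farthest.

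Excluding the 5 samples below the gap, a choice made after seeing the data that leaves 3 against 3 exercised samples, ended all 5 mitochondrial calls after exercise, where 2.21% of all genes were then called. The log2 differences were then -1.01 for mt-Co3 (edgeR adjusted p = 0.179), -0.90 for mt-Rnr1 (0.218), -0.87 for mt-Rnr2 (0.179), -0.76 for mt-Co2 (0.202) and -2.80 for mt-Ts1 (0.263). With the score as a covariate and all 20 samples kept, edgeR called 6 mitochondrial genes after exercise, these 5 and the glutamine tRNA mt-Tq. Calls over all genes were also more frequent in that fit, at 10.4% beside 6.42% without the covariate. In vehicle muscle that fit called 2 for exercise against rest, mt-Rnr1 (log2 difference 1.13, adjusted p = 0.0081) and mt-Rnr2 (1.02, adjusted p = 0.0115), beside 1.83% of all genes with the covariate and 0.804% without it. The part that fibre type had in the mitochondrial differences was not tested beyond these fits.

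**Figure D5:**
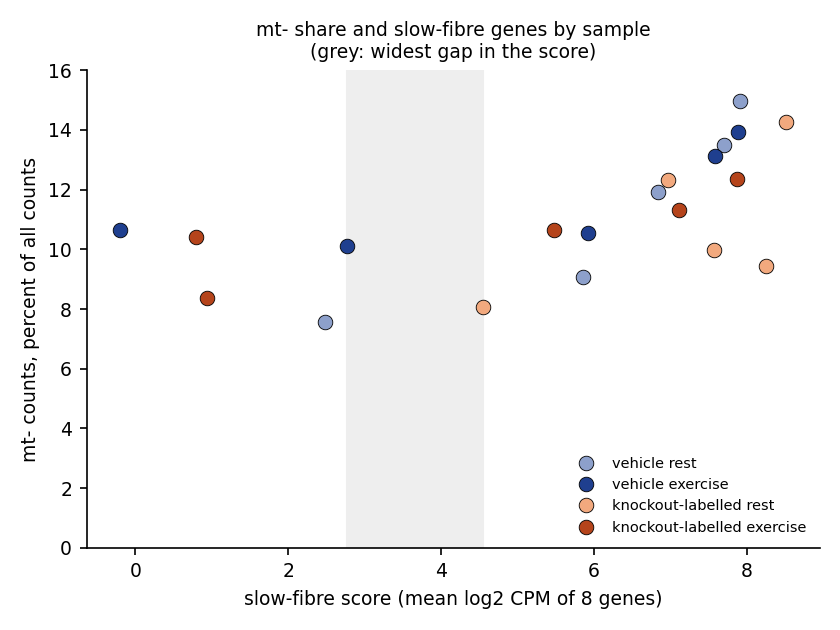
Percent of all counts that were mitochondrial in each of the 20 samples against the slow-fibre score (mean log2 CPM of 8 genes), coloured by group, with the widest gap in the score, 2.77 to 4.54, in grey. The 5 samples left of the gap span 7.55% to 10.7%, and the 15 right of it reach 14.96%.

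A nuclear rRNA entry, CT010467.1, also varied. It averaged 25497 ± 5618 CPM (SD, n = 5) in vehicle at rest, 29754 ± 9696 in vehicle after exercise, 26835 ± 6131 in knockout-labelled muscle at rest and 22866 ± 3484 after exercise. Its highest values, 41449 and 39107 CPM, were in replicates 1 and 2 of vehicle after exercise. Of these samples, replicate 1 was among the highest in mitochondrial rRNA and replicate 2 was not. The part of rRNA carry-over in the mitochondrial rRNA difference was not tested.

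Nuclear genes for mitochondrial DNA maintenance, transcription and RNA processing were called after exercise at about the share of all genes. Of 32 listed genes, 30 were tested, and after exercise 1 was higher and 1 lower in knockout-labelled muscle, beside 2.67% and 3.75% of all genes, with a median log2 difference of 0.05 beside 0.01 over all genes. Slirp, which with LRPPRC binds and stabilises mitochondrial mRNAs, fell from 50.0 ± 2.73 CPM (SD, n = 5) in vehicle to 34.9 ± 5.89 (log2 difference -0.56, edgeR adjusted p = 0.0068). It kept its call in all 10 fits without 1 sample, but not without the 5 samples of low slow-fibre score (-0.38, adjusted p = 0.195). The transcription factor gene Tfb2m rose from 41.4 ± 4.11 to 52.8 ± 4.32 CPM (log2 difference 0.32, edgeR adjusted p = 0.0277). Its call was lost without vehicle replicate 3 or 4 or knockout-labelled replicate 2 or 4 (adjusted p up to 0.0900), and without the samples of low score the difference was 0.16 (adjusted p = 0.556). At rest Tfb2m averaged 40.7 ± 2.82 CPM in vehicle and 48.8 ± 3.98 in knockout-labelled muscle (log2 difference 0.25, edgeR adjusted p = 0.121). Its interaction was 0.06 (edgeR adjusted p = 0.992). The polymerase gene Polrmt (-0.07, edgeR adjusted p = 0.780) and Tfam, which packages and activates mitochondrial DNA (0.05, edgeR adjusted p = 0.758), did not pass. None of the 30 passed in the other 4 comparisons, where the share of all genes called lay between 0% and 3.86%.

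Of 83 listed nuclear genes for respiratory chain subunits, 80 were tested. After exercise 6 were lower in knockout-labelled muscle, beside 3.75% of all genes, and none higher, beside 2.67%, with a median log2 difference of -0.13 beside 0.01 over all genes. The 4 with the smallest p were Ndufs6 (-0.58, edgeR adjusted p = 0.0216), Ndufa2 (-0.42, 0.0385) and Ndufa13 (-0.38, 0.0395) of complex I and Atp5e (-0.70, 0.0326) of ATP synthase. All 4 lost their call without vehicle replicate 1, 2 or 3 or knockout-labelled replicate 1 or 2. Ndufs6, Ndufa2 and Atp5e also lost it without knockout-labelled replicate 4, and Ndufa2 and Ndufa13 without replicate 5, with adjusted p-values up to 0.114 over all of these. None of the 4 kept it without the samples of low slow-fibre score (adjusted p = 0.0822 to 0.263).

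At rest the direction among called subunit genes was the other one. There, none of the 80 was lower in knockout-labelled muscle, beside 279 of all 13560 genes. The median was 0.19 beside 0.01 over all genes. Of the 80, 3 were higher in knockout-labelled muscle, beside 1.8% of all genes. These were Cox5a of complex IV (0.40, edgeR adjusted p = 0.0314) and the complex I genes Ndufb7 (0.33, 0.0324) and Ndufb8 (0.51, 0.0392). All 3 lost their call without vehicle replicate 3 or 5 or knockout-labelled replicate 1, 2 or 5. Cox5a and Ndufb8 also lost it without vehicle replicate 1, Ndufb7 and Ndufb8 without vehicle replicate 2, and Ndufb8 without knockout-labelled replicate 3 or 4 (adjusted p up to 0.139). None of the 80 passed for exercise against rest, beside 0.804% of all genes in vehicle and 0% in knockout-labelled muscle. The median there was 0.18 in vehicle and -0.15 in knockout-labelled muscle.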

How the data were processed

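RNA of 20 gastrocnemius samples was sequenced after Trizol and Qiagen extraction and an Illumina library kit, per the labels' protocols. One table of whole-number counts per gene was deposited by the authors. The submitters' processing notes name Partek, STAR 2.7.8a and DESeq2, and the builds mm10 and GRCm39, without saying which made this table, so no coordinates are given. Counting and strand are not given in the sources used here.

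The low-count filter was filterByExpr in edgeR 4.0.16 (minimum count 10), which left 13560 genes with 99.8% of the counts, and scaling was by TMM. A robust quasi-likelihood model with 1 mean per group was fitted to all samples in R 4.3.3, and 5 contrasts were tested with Benjamini-Hochberg adjustment over all genes at 0.05. Printed levels are CPM of the column total, without TMM. Class sums were tested by exact permutation, two-sided, on the log2 scale for CPM. Correlations used 100000 permutations (scipy 1.17.1). Nuclear copies were found with blastn 2.17.0 in GENCODE M21 transcripts. Scripts were tested on simulated data. Alternatives included DESeq2 1.42.0, other scalings and filters, and each sample left out.

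Values in every sample are given for class sums and called genes. Group means or values in every sample are given for the tested protein genes, the rRNA genes and the 4 most abundant tRNA genes. From the nuclear lists, up to 4 called members per contrast were named, with Polrmt, Tfam and Tfb2m. The members and lists were chosen with earlier results of these data known. Floors in CPM cover counting error only, whereas SDs and SEs take in the spread between samples. Replicate numbers, taken from the titles, were not used as pairs, since no label ties same-numbered samples and their deviations were not all positively correlated.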

Additional observations from a re-analysis of the deposited data

Results flagged for a closer look

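In 11 of 117 groups examined, 1 sample stood apart from the other 4 of its group by Dixon's test, which chance does in about 1 in 20 groups. Of these, 7 concern replicate 2 of knockout-labelled muscle at rest, and their values are not independent of each other. This sample had 1788 CPM of mt-Rnr1 (the others 909 to 1027), 2285 CPM of mt-Rnr2 (1191 to 1346) and 4074 CPM of summed mitochondrial rRNA (2112 to 2373). It also had 125.9 CPM of mt-Ts1 (29.6 to 50.0), 56.0 CPM of mt-Atp6 (17.9 to 24.5) and 15.4 CPM of mt-Tc (0 in the others). Its tRNA share of mitochondrial counts was 0.448% (0.334% to 0.358%).

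The serine tRNA mt-Ts1 stood apart in 2 further samples, at 466.7 CPM in replicate 1 of vehicle at rest (the others 30.6 to 139.6) and at 69.0 CPM in replicate 3 of knockout-labelled muscle after exercise (24.4 to 32.9). For mt-Atp6, replicate 5 of vehicle after exercise had 121.6 CPM (25.3 to 37.9). For mt-Nd3, replicate 1 of knockout-labelled muscle at rest had 20.01 CPM (1.70 to 5.18).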

How the results depend on the processing

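Of the 37 mitochondrial genes, 15 had too few counts to be tested, and 5 samples per group limit the class comparisons. After exercise, the 5 mitochondrial calls became 3 with library size alone as the scaling, 1 without a filter on low counts, 2 with both groups of the contrast alone, 2 with the replicate number as a block and 0 without the samples of low slow-fibre score. No pairing was assumed, because no label ties same-numbered samples and not every pair's deviations correlated above 0.1 (-0.448 to 0.437 over 4 contrasts). For the exercised groups all 5 correlations were positive (0.264, 0.437, 0.412, 0.268 and 0.018 for replicates 1 to 5), and replicates 2 and 4 of both had a low slow-fibre score. There the block kept the calls of mt-Co3 (adjusted p = 0.0201) and mt-Rnr1 (0.0385) but not of mt-Rnr2 (0.0575), mt-Co2 (0.0758) and mt-Ts1 (0.0830). Calls over all genes after exercise were 567 with both groups alone, 304 without the low-score samples and 1417 with the score as covariate, which also gave 854 at rest, 248 and 2 mitochondrial for exercise in vehicle, and 5 for exercise in knockout-labelled muscle. For exercise in vehicle there were 61 with both groups alone and 61 without the low-score samples, and 195 with 1 mitochondrial by DESeq2, which called 3 genes in the interaction. Without the low-score samples, 3 genes were called for exercise in knockout-labelled muscle.

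Leaving out 1 exercised sample gave 1 to 4 mitochondrial calls after exercise (1 without vehicle replicate 3 or knockout-labelled replicate 2, 2 without vehicle replicate 1 or knockout-labelled replicate 1 or 4, 3 without vehicle replicate 2 or knockout-labelled replicate 5). For exercise in vehicle it gave 52 to 135 calls over all genes, with 52 to 68 without resting replicate 1, 2, 4 or 5 or exercised replicate 3 or 4, and 0 to 1 mitochondrial call (1 without vehicle replicate 5 after exercise). The interaction had 0 to 1 call (1 without knockout-labelled replicate 3 at rest).

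The values below changed sign, and none of them passed a test. Their main values reached -0.21 for tRNA genes and -0.16 for mt-Co2, both for exercise in knockout-labelled muscle. For exercise in knockout-labelled muscle, without the low-score samples, the summed log2 differences were 0.11 for all mitochondrial genes, 0.10 for protein genes and 0.087 for tRNA genes. With rRNA left out of the denominator the protein share differed by 0.0469 points. After exercise, mt-Co1 differed by 0.0040 with library size alone and by 9.8e-05 with the score as covariate, which gave 0.0026 for mt-Co2 for exercise in knockout-labelled muscle. Polrmt differed by 0.026 without the low-score samples.

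Leaving out 1 sample gave ranges that crossed 0. At rest they were -0.20 to 0.048 for all mitochondrial genes, -0.19 to 0.054 for protein genes and -0.33 to 0.015 for mt-Rnr1. After exercise mt-Co1 ranged from -0.091 to 0.052. For exercise in vehicle they were -0.070 to 0.18 for all genes of the set, -0.10 to 0.15 for protein, -0.10 to 0.36 for tRNA and -0.030 to 0.10 points for the tRNA share. For exercise in knockout-labelled muscle they were -0.11 to 0.10 for all, -0.11 to 0.097 for protein, -0.095 to 0.21 for rRNA, -0.29 to 0.13 points for the protein share and -0.071 to 0.32 for the rRNA share. There mt-Co2 ranged from -0.30 to 0.048, mt-Rnr1 from -0.097 to 0.25 and mt-Rnr2 from -0.059 to 0.28. The cause of these changes was not tested.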
